A study of Homo sapiens with 54 samples.

Results

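The untreated transcriptomes of 2 human prostate cancer cell lines, 22Rv1 and C4-2, were compared with each other. They are held in 6 of the 54 total RNA libraries of the series, 3 per line, chosen by the sample titles. C4-2 was derived from the line LNCaP by passage through castrated mice, and 22Rv1 from a tumour graft that came back after castration of its host, and both are used as models of castration-resistant disease. Both lines were grown in RPMI medium with serum and received ethanol, the vehicle, for 12 h. The labels call the cultures biological triplicates and tag all 6 libraries with the genotype WT, without saying what the letters refer to. The labels name no transgene for either group and no agent other than the vehicle. Each line is 1 established line, so the values describe these lines and not 2 kinds of tumour. Of the 19225 genes and other transcripts in the table, 14904 had at least 1 CPM, the reads of a gene scaled to a common library size, in at least 3 of the 6 libraries and were tested.

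Androgens are the steroids that drive the secretory programme of the luminal prostate, among whose products are the kallikrein proteases measured in blood as a tumour marker. Castration-resistant cells grow with little testicular androgen. Routes known for this include local steroid synthesis, use of other steroid hormones and growth factor signalling. The genes that androgen induces in prostate cells are therefore described first.

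The 6 libraries held 37222868 to 52417050 reads in genes, so that 1 read was worth 0.0207 to 0.0258 CPM. One library, C4-2 vehicle 1, is titled as C4-2 while its cell line tag says 22Rv1. Its correlation across 14904 genes was 0.994 to 0.998 with treated C4-2 libraries and 0.815 to 0.826 with treated 22Rv1 libraries, and it was kept as C4-2. It did hold more reads of genes that are off in C4-2. Over 40 genes picked in treated libraries as on in 22Rv1 and off in C4-2, its summed level was 0.421% of that in 22Rv1, against 0.0328% and 0.0245% in C4-2 vehicle 2 and 3, and it was the highest of the 3 for 40 of the 40. For the named genes that it moved most, the value without it is given too. The library 22Rv1 vehicle 3 had the largest share of mitochondrial ribosomal RNA, 0.196% of reads, against 0.0302 to 0.0637% in the other 5. Differences are given as log2 of 22Rv1 over C4-2 on log2(CPM + 0.5), which understates the change of low genes. After ± stands the SD where a level is given and the SE where a difference is given, with n = 3 per line.

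Most genes differed between the lines. Of the 14904 genes tested, 12970 were called (87.0%) by limma with Benjamini-Hochberg adjustment at 0.05, 6288 of them higher in 22Rv1 (42.2%) and 6682 lower (44.8%). The 3 libraries of one line lay wholly above those of the other for 13005 genes (87.3%). With so many calls, being called says little of a single gene, and sizes matter more. Counts within the gene lists below are to be read beside the shares of all genes, 42.2% higher and 44.8% lower. The median difference was -0.03 and the median absolute difference 0.62, and 8280 calls (63.8%) were under 2-fold. At least 2-fold apart were 4690 genes (31.5%), of which 2685 were higher in 22Rv1 (18.0%) and 2005 lower (13.5%). At least 16-fold apart were 429 genes (2.88%), of which 315 were higher in 22Rv1 (2.11%) and 114 lower (0.765%). The authors' library sizes were 1.08 to 1.12 times the reads in 22Rv1 and 0.910 to 0.940 times in C4-2, while the 20 most abundant genes took 15.3 to 15.8% and 19.9 to 20.7% of the reads. Scaling to total reads in place of those sizes moved the median difference up by 0.24, to 0.22, and low genes by less (the median of 5 UGT2B genes went from 2.00 to 2.10), and turned the split into 8007 higher and 5078 lower. Small differences of 1 gene or list therefore have to be read against that shift. A single gene in 3 against 3 libraries could not pass 0.10 in an exact permutation test, so the calls rest on the spread pooled over genes. In bulk RNA, fewer cells of a type and less RNA per cell cannot be told apart.

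The genes that differed most were on in one line and near off in the other. Highest over C4-2 was HGF (chromosome 7, 81699010 to 81770047), the growth factor that activates the receptor MET. HGF stood at 745, 783 and 788 CPM in the 22Rv1 libraries and at 2.92, 0 and 0 CPM in C4-2. The only HGF reads in C4-2 were in vehicle 1, and the difference was 9.67 ± 0.48 with that library and 10.59 without it. Against the floor of 3 reads per library in the other 2 libraries, HGF was at least 9988-fold higher in 22Rv1. ALB, which encodes serum albumin and is a liver gene, had 303, 306 and 318 CPM in 22Rv1 against 0.860, 0 and 0 CPM in C4-2, a difference of 8.79 ± 0.26, or 9.27 without C4-2 vehicle 1. SPINK1, a secreted trypsin inhibitor that marks a class of prostate cancers without ETS gene fusions, had 217, 225 and 229 CPM against 0.950, 0 and 0 CPM. Its difference was 8.30 ± 0.27, and 8.81 without C4-2 vehicle 1. All 3 genes were in effect silent in C4-2 vehicle 2 and 3.

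Next in order came genes of several tissues. TSPAN8, a tetraspanin of gut epithelium, had a mean of 235 ± 7.97 CPM in 22Rv1 and 0.480 ± 0.645 CPM in C4-2. GATA3, a transcription factor of breast and bladder epithelium and T cells, had 142 ± 5.47 CPM in 22Rv1 and 0.250 ± 0.206 CPM in C4-2, a difference of 7.61 ± 0.14. ANKRD30A, a breast differentiation antigen, differed by 7.46 ± 0.16. Nerve and synapse genes were among them as well. CBLN2, a synapse organiser, differed by 7.50 ± 0.25, SLITRK6, a neuronal membrane protein, by 7.47 ± 0.14, and SV2A, a synaptic vesicle protein, by 7.46 ± 0.15. EGR1, an immediate early transcription factor, was at 245, 230 and 216 CPM in 22Rv1 and at 1.29, 0.455 and 0.721 CPM in C4-2. The cancer-testis genes MAGEA4 (8.41 ± 0.22), CTAG1B (7.46 ± 0.16) and SSX2 (7.35 ± 0.14), normally limited to germ cells, completed the group with the histone genes H4C4 and H3C3. CTAG1B and SSX2 have near-identical neighbours, between which reads may be split. Without C4-2 vehicle 1 the differences were larger, 8.60 for TSPAN8, 7.96 for CBLN2, 7.73 for ANKRD30A, 7.74 for EGR1 and 8.82 for MAGEA4.

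**Figure D1:**
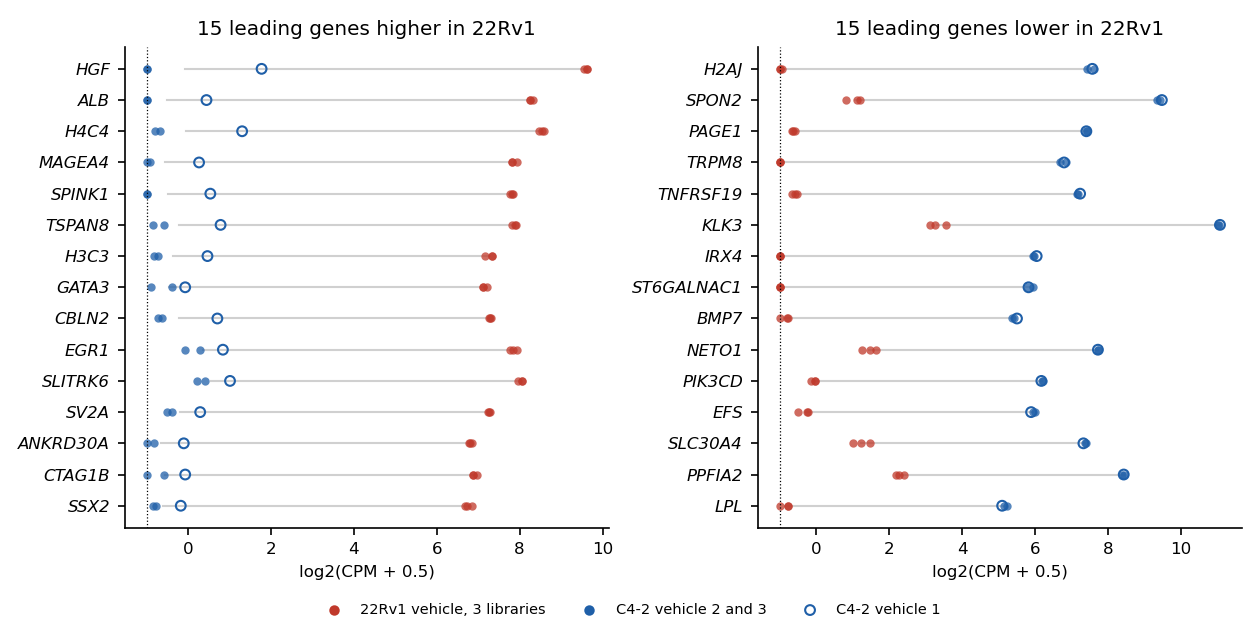
The 15 genes with the largest differences in each direction among those with at least 10 CPM in the higher line and libraries that do not overlap. Each dot is 1 library on log2(CPM + 0.5), the dotted line marks 0 CPM and grey lines join the means. The open circle of C4-2 vehicle 1 lies above the other C4-2 libraries for the genes on the left. For those on the right it lies close to them, though above them for SPON2 and KLK3.

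In the other direction, the largest difference was that of H2AJ, a histone H2A variant gene on chromosome 12 (14774405 to 14778002). It had 191, 195 and 174 CPM in C4-2 and 1 read in all 3 22Rv1 libraries together. The ratio of the levels was 25083 with a 95% counting interval of 4502 to 990729, which covers counting error only. SPON2, a secreted matrix protein, was at 716, 690 and 654 CPM in C4-2 and at 1.27, 1.82 and 1.67 CPM in 22Rv1, a difference of -8.37 ± 0.08. TRPM8 (chromosome 2, 233917373 to 234019522), the cold-activated ion channel of prostate epithelium, had no read in any 22Rv1 library and 111, 103 and 115.55 CPM in C4-2. Against the floor of 3 reads per library it was at least 1523-fold lower in 22Rv1. IRX4, a homeobox gene, and ST6GALNAC1, a sialyltransferase, were likewise without a read in 22Rv1, at least 876-fold and at least 802-fold lower. TNFRSF19, a receptor of the tumour necrosis factor family, was at 0.165 ± 0.0317 CPM in 22Rv1 and 146 ± 4.65 CPM in C4-2. PAGE1, a cancer-testis gene on X, was at 0.148 ± 0.0209 CPM in 22Rv1 and 171 ± 2.32 CPM in C4-2. Genes of membranes and metabolism made up the rest, among them the zinc transporter SLC30A4 (-6.14 ± 0.09), the glutamate receptor partner NETO1 (-6.27 ± 0.08), the synaptic scaffold PPFIA2 (-6.13 ± 0.05), the adaptor EFS (-6.26 ± 0.10) and the lipase LPL (-6.02 ± 0.11). No library of one line came near those of the other for any of these genes.

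Most genes that androgen induces were lower in 22Rv1. Of 38 androgen-induced genes tested, 29 were lower in 22Rv1 and 9 higher, beside 44.8% and 42.2% of all genes, and the median difference was -1.27. Of the 29, 23 were at least 2-fold lower. Summed over the list, the level was 3534 to 3679 CPM in 22Rv1 and 9018 to 9417 CPM in C4-2.

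The kallikrein KLK3, which encodes prostate-specific antigen, differed most among the secretory genes. KLK3 (chromosome 19, 50854915 to 50860764) had 11.4, 9.04 and 8.28 CPM in 22Rv1 and 2165, 2085 and 2129.5 CPM in C4-2, a difference of -7.73 ± 0.07. Its neighbour KLK2 had 27.4, 26.4 and 26.5 CPM in 22Rv1 and 346, 338 and 362 CPM in C4-2, a difference of -3.68 ± 0.04. KLK4, the next prostate kallikrein of the same cluster, went the other way. It had 140, 139 and 141 CPM in 22Rv1 and 68.9, 72.7 and 72.7 CPM in C4-2, a difference of 0.96 ± 0.03. KLK1 (4.12 ± 0.11) and KLK11 (1.84 ± 0.13) were also higher and KLK15 lower (-2.18 ± 0.11), so that 3 of the 6 kallikreins tested were higher and 3 lower.

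The promoters of KLK3 and KLK2 share a stretch that the others lack, and it is shown here because the differences of the pair have one sign. The sequences are from RefSeq (GRCh38.p14, plus strand, 100 bases that end before the gene start), 5′ to 3′, with the shared motif GAACAGCAAGTGCT in capitals. This motif lies in the known androgen response element of KLK3 and was searched on both strands.
KLK3, chr19:50854705-50854804: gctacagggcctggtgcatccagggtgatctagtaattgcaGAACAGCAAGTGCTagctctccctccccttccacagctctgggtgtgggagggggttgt
KLK2, chr19:50873229-50873328: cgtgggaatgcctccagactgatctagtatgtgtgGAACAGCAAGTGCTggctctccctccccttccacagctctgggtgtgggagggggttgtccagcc
The motif begins 169 bases before the gene start in KLK3 and 175 bases before it in KLK2. In the promoter table, which covers 250 bases before to 50 bases after each gene start, 2 of 27195 promoters held it, those of these genes. The shorter half-site AGAACA, on either strand, was in 3 of 28 promoters of androgen-induced genes, KLK3, FKBP5 and PMEPA1, and in 9.06% of the 11512 tested genes with a promoter. A match says nothing of binding in these cells.

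Other androgen-induced genes with clear roles followed. TMPRSS2, the membrane protease whose promoter is often fused to ETS genes in prostate cancer, had 15.5, 14.955 and 13.7 CPM in 22Rv1 and 250.2, 233 and 241 CPM in C4-2, a difference of -3.99 ± 0.05. SORD, the sorbitol dehydrogenase of seminal fluid secretion, differed by -3.52 ± 0.04. Smaller differences were those of SLC45A3, a prostate membrane transporter (-0.94 ± 0.05), and FKBP5, a cochaperone of steroid receptors (-0.51 ± 0.03). Higher in 22Rv1 were HPGD, which degrades prostaglandins (5.90 ± 0.18, and 6.21 without C4-2 vehicle 1), the zinc finger gene ZBTB10 (2.00 ± 0.03), SPOCK1, a matrix proteoglycan (1.53 ± 0.09), and ELL2, an elongation factor (1.20 ± 0.04). The androgen-induced genes did not move as 1 block, and their differences ranged from -7.78 to 5.90.

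Of the transcription factors of luminal prostate, FOXA1 hardly differed. FOXA1, which opens chromatin for other factors, had 412, 416 and 416 CPM in 22Rv1 and 400.5, 381 and 386 CPM in C4-2, a called difference of 0.09 ± 0.03 that is smaller than the shift between scalings and was lost without C4-2 vehicle 2 (0.08). HOXB13, the prostate homeobox factor, was lower at 218 ± 3.08 CPM against 451 ± 17.9 CPM (-1.04 ± 0.03). GATA2, a zinc finger factor, was lower at 98.7 ± 3.47 CPM against 346 ± 3.69 CPM (-1.80 ± 0.03). GREB1, a hormone-induced growth gene, was lower by -1.11 ± 0.08. Of 28 luminal prostate and epithelial genes, 7 were higher in 22Rv1 and 21 lower, beside 42.2% and 44.8% of all genes. Their median was -0.75. Far lower among them were RAB25, an epithelial trafficking protein (-5.55 ± 0.10), and OVOL1, an epithelial repressor (-3.25 ± 0.10). FOLH1, the prostate-specific membrane antigen, stood at 418 ± 11.4 CPM against 652 ± 7.51 CPM. The 1 member at least 2-fold higher was TMEFF2, a transmembrane protein of prostate, with 62.3 ± 2.86 CPM in 22Rv1 and 0.187 ± 0.289 CPM in C4-2, a difference of 6.59 ± 0.19 that was 6.91 without C4-2 vehicle 1. The keratins KRT8 (-0.47 ± 0.03) and KRT18 (-0.85 ± 0.03), which mark luminal epithelium, were lower too, and no keratin tested was higher.

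**Figure D2:**
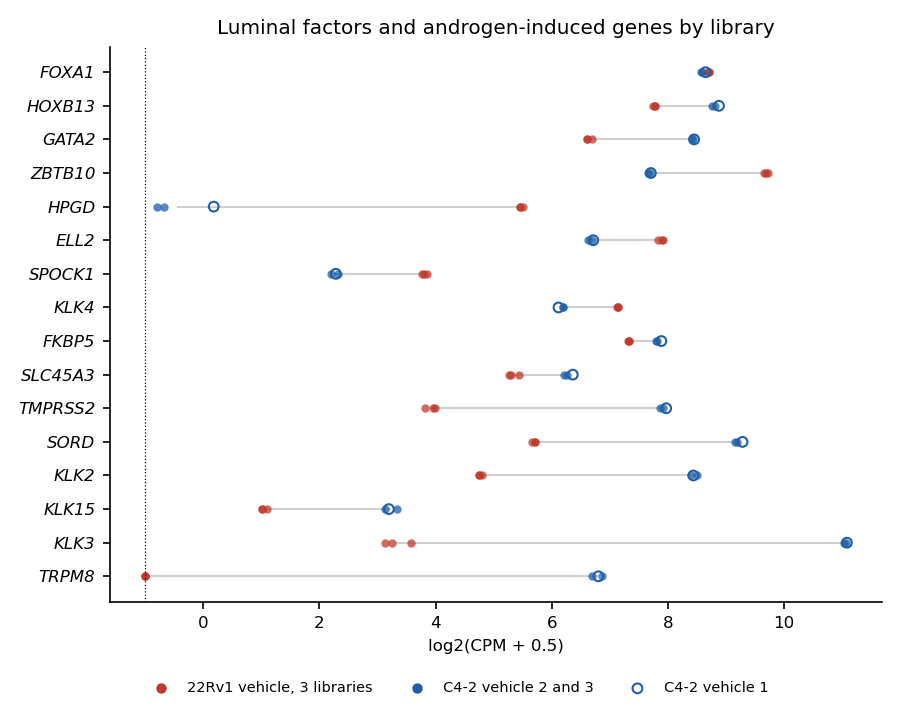
The luminal factors FOXA1, HOXB13 and GATA2 and 13 androgen-induced genes, with 1 dot per library on log2(CPM + 0.5). KLK3 (-7.73), TRPM8, TMPRSS2 (-3.99) and KLK2 (-3.68) lie far lower in 22Rv1, and ZBTB10, HPGD, ELL2, SPOCK1 and KLK4 lie higher.

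Receptors of other hormones differed gene by gene. NR3C1, the glucocorticoid receptor, which answers to cortisol, had 24.3, 24.6 and 22.8 CPM in 22Rv1 and 0.136, 0.0413 and 0.0515 CPM in C4-2. Its difference was 5.41 ± 0.11. NR2F1, an orphan receptor linked to dormancy, was at 69.8 ± 0.392 CPM against 0.519 ± 0.0941 CPM, while its relative NR2F2 was lower in 22Rv1 by -1.56 ± 0.04. PGR, the progesterone receptor, was low in both lines, at 0.0750 ± 0.0279 CPM in 22Rv1 and 1.42 ± 0.357 CPM in C4-2. PPARG, a lipid-sensing receptor, was at 0.0321 ± 0.0555 CPM against 5.21 ± 0.521 CPM. RXRA, the common partner of many of these receptors, was lower by -2.29 ± 0.03. ESR2, the oestrogen receptor beta that the series was designed around, had 2.04, 2.60 and 2.29 CPM in 22Rv1 and 1.81, 1.98 and 1.98 CPM in C4-2. No difference of ESR2 was shown (0.21 ± 0.12, 95% interval -0.05 to 0.46, adjusted p = 0.112 by limma). The ESR2 value was 0.41 with total reads and -0.42 after cyclic loess scaling, called in both, so no direction is given. Of the 34 receptors tested, 14 were higher and 17 lower, which became 17 and 15 with total reads.

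Of 27 enzymes that make and clear androgens, 16 were higher in 22Rv1 and 11 lower, beside 42.2% and 44.8% of all genes, with a median of 0.65. Among the 18 of them with a mean of at least 5 CPM, 9 were higher and 9 lower (median 0.14), so the list as a whole has no firm direction. AKR1C3, which converts androstenedione to testosterone, had 13.9, 16.04 and 15.1 CPM in 22Rv1 and 0.0452, 0.0413 and 0.232 CPM in C4-2, a difference of 4.69 ± 0.13. AKR1C1 (5.29 ± 0.12) and AKR1C2 (5.202 ± 0.11), close relatives that mainly inactivate steroids, differed as much, and reads may be shared among the 3. All 5 UGT2B genes tested, enzymes that glucuronidate androgens for excretion, were higher. Summed over the 7 in the table, the level was 29.7 to 32.1 CPM in 22Rv1 and 0.909 to 1.56 CPM in C4-2. A member could therefore pass the filter only through 22Rv1, so the shared direction follows from the filter. The 2 other members did not pass it. UGT2B15 was at 18.2 ± 2.19 CPM in 22Rv1 against 0.792 ± 0.285 CPM, UGT2B17 at 2.89 ± 0.923 CPM against 0.412 ± 0.118 CPM, and UGT2B10 had no read in C4-2 and was at least 79.5-fold higher. These genes are near-identical in sequence, so their single values are uncertain. HSD11B2, which inactivates cortisol (-1.38 ± 0.08), and the sulfotransferase SULT2B1 (-2.36 ± 0.12) were lower.

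Adhesion genes separated the lines further, and the clustered protocadherins most of all. These cell surface genes lie side by side on chromosome 5, give neurons their surface identity and share constant exons, so that reads of single members are uncertain. Of 46 tested, 44 were higher in 22Rv1 and 2 lower, with a median of 2.92 that lay between 1.40 and 6.69 under other settings, and 43 were at least 2-fold higher against 18.0% of all genes. The other 7 in the table did not pass the filter. Summed over all 53, the level was 311 to 319 CPM in 22Rv1 and 27.2 to 28.6 CPM in C4-2. Members that are low in C4-2 could pass only through 22Rv1, so the filter itself favours the higher direction in these counts. PCDHB2 had 47.1, 44.7 and 49.0 CPM in 22Rv1 and 0.452, 0.372 and 0.283 CPM in C4-2. PCDHB5 was at 29.0 ± 0.733 CPM against 0.223 ± 0.109 CPM, and PCDHB13 at 19.2 ± 1.07 CPM against 0.167 ± 0.0133 CPM. The members that went down were PCDHGA8 (-0.48 ± 0.13) and PCDHGC3 (-0.29 ± 0.08), both with smaller differences than the rest, and the call of PCDHGC3 was lost with scaling to total reads (-0.05, adjusted p = 0.57 by limma).

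The promoters of 3 beta members that were higher in 22Rv1 are shown with an element common to them. Whether the element bears on the differences was not tested. They are from RefSeq (GRCh38.p14, plus strand, 5′ to 3′, up to the gene start), with the motif GGCGCTGCAG in capitals.
PCDHB2, chr5:141094515-141094614: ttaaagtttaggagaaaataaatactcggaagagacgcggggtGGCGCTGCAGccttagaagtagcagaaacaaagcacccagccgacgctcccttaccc
PCDHB5, chr5:141135106-141135205: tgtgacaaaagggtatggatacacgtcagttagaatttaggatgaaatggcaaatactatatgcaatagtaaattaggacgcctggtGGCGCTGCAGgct
PCDHB13, chr5:141213819-141213918: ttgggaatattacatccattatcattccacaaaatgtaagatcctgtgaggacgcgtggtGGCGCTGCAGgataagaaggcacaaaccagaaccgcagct
The motif was chosen after the sequences had been read, and both strands were searched. It was in 10 of 42 protocadherin promoters (23.8%), in 0.584% of the promoters of the other tested genes and in 0.423% of all 27195 promoters. Promoters of the cluster also held few CG dinucleotides, with a median of 7 against 26 in all 11512 tested genes with a promoter. The CG median was 18 in genes at least 16-fold higher in 22Rv1, 22 in those at least 16-fold lower and 27 in genes under 2-fold apart.

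Classical adhesion genes were split. Of 35 cadherins, integrins and claudins, 18 were higher in 22Rv1 and 14 lower, beside 42.2% and 44.8% of all genes. CDH2, the N-cadherin of nerve and mesenchyme, had 35.5, 38.2 and 41.2 CPM in 22Rv1 and no read in C4-2, at least 496-fold higher. CDH6, a kidney cadherin (6.46 ± 0.11), CLDN11, a tight junction claudin (6.44 ± 0.11), and the integrin ITGB8 (5.08 ± 0.10) were higher too. CDH1, the E-cadherin of epithelia, stayed high in both lines, with 320.0, 322 and 334 CPM in 22Rv1 and 485, 462 and 508 CPM in C4-2. ITGA6 (-2.11 ± 0.08), the claudin CLDN4 (-1.62 ± 0.04) and CDH26 (-2.95 ± 0.12) were lower. CD44, a hyaluronan receptor of basal and stem-like cells, was at 28.4 ± 0.633 CPM in 22Rv1 against 0.0603 ± 0.104 CPM, and LAMA3, a basement membrane laminin, at 9.20 ± 0.248 CPM against 136 ± 8.94 CPM. All C4-2 reads of CD44 and CDH6 were in C4-2 vehicle 1, and against the other 2 libraries CD44 was at least 367-fold and CDH6 at least 595-fold higher.

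Markers of other cell types did not give the lines 1 identity. Among 11 neuroendocrine genes tested, 8 were higher in 22Rv1 and 3 lower. Members low in C4-2 could pass the filter only through 22Rv1, which favours the higher direction in these counts. After cyclic loess scaling the counts were 7 and 4, and the median fell from 1.76 to 0.64. PEG10, a retrotransposon-derived gene raised in neuroendocrine prostate cancer, had 1203, 1248 and 1296 CPM in 22Rv1 and 15, 10.0 and 8.91 CPM in C4-2. ENO2 (4.36 ± 0.07), the neuronal enolase, POU3F2 (4.198 ± 0.12), a neural transcription factor, and SRRM4 (4.10 ± 0.12), a neural splicing factor, were also higher. DLL3 (-2.59 ± 0.10), a Notch ligand of neuroendocrine tumours, and SYT4 (-0.38 ± 0.04), a vesicle protein, were lower, and 12 further members of the list did not pass the filter. Of 10 mesenchyme genes 5 were higher and 4 lower, and 4 and 5 after cyclic loess scaling. TWIST1, an inducer of mesenchymal traits, was at 18.4 ± 1.20 CPM against 0.135 ± 0.0288 CPM, whereas FN1, fibronectin, was at 49.8 ± 0.604 CPM against 709.95 ± 42.1 CPM. VIM was low in both, at 5.35 ± 0.425 CPM and 3.48 ± 0.354 CPM. Leukocyte markers summed to 13.9 to 16.3 CPM in 22Rv1 and 11.6 to 13.7 CPM in C4-2 and endothelial markers to 4.30 to 4.57 CPM and 5.46 to 6.72 CPM. Of the leukocyte, endothelial and mesenchyme markers that failed the filter, none exceeded 1.08 CPM in a library, and none was at 0 in all 6. Their part in any result was not tested.

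Single ligands, receptors and downstream genes of growth factor signalling differed. MET, the receptor of HGF, had 28.5, 27.0 and 29.4 CPM in 22Rv1 and 0.860, 0.992 and 0.670 CPM in C4-2, so that ligand and receptor were both higher in the same line. Of 34 receptor tyrosine kinases, 18 were higher (52.9%) and 14 lower (41.2%), beside 42.2% and 44.8% of all genes. EPHA3, an ephrin receptor, had 536, 552 and 558 CPM in 22Rv1 and 6.47, 3.14 and 3.94 CPM in C4-2 (6.83 ± 0.15). EPHA7 (6.96 ± 0.12), EPHB3 (4.11 ± 0.05) and the neuregulin receptor ERBB4 (4.47 ± 0.12) were higher as well. IGF1R, the receptor of insulin-like growth factor, went down, at 13.9 ± 0.963 CPM against 93.6 ± 4.61 CPM, and FGFR2 had no read in 22Rv1 (at least 45.8-fold lower). The C4-2 reads of EPHA7 and ERBB4 were all in vehicle 1, without which EPHA7 was at least 888-fold and ERBB4 at least 145-fold higher in 22Rv1.

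The ETS factors at the end of growth factor pathways moved in both directions. Among 21 tested, 10 were higher and 8 lower, beside 42.2% and 44.8% of all genes. ETV1 had 31.7, 36.1 and 34.2 CPM in 22Rv1 and 0.181, 0 and 0 CPM in C4-2, with a difference of 5.96 ± 0.13, and was at least 440.2-fold higher without C4-2 vehicle 1. In LNCaP vehicle libraries, the line from which C4-2 comes, ETV1 was at 339 ± 7.30 CPM, the highest of the 3 lines. ETV4 (5.26 ± 0.11) and ETV5 (5.37 ± 0.12) were higher with it, and the epithelial members EHF (-2.94 ± 0.03) and ELF5 (-3.52 ± 0.10) were lower.

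In the phosphatidylinositol kinase pathway, 9 of 27 genes were higher and 17 lower, beside 42.2% and 44.8% of all genes. The median was -0.24, and 0.01 with scaling to total reads. PIK3CD, the delta catalytic subunit best known from leukocytes, had 0.481, 0.412 and 0.471 CPM in 22Rv1 and 72.0, 74.5 and 73.2 CPM in C4-2, a difference of -6.27 ± 0.09. PIK3CA, the alpha subunit, was higher at 42.3 ± 2.48 CPM against 18.0 ± 0.528 CPM. The regulatory subunits PIK3R1 (-1.86 ± 0.04) and PIK3R3 (-1.97 ± 0.04) were lower, and IRS2 (3.39 ± 0.05), an insulin receptor substrate, was higher.

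The transforming growth factor beta and bone morphogenetic protein pathway held 20 higher and 16 lower genes of 37, with a median of 0.55 that turned to -0.12 when only genes with a mean of at least 5 CPM were kept. Ligands exchanged places. BMP2 had 33.1, 35.03 and 34.7 CPM in 22Rv1 and 0.0905, 0.0413 and 0.0515 CPM in C4-2, whereas BMP7 had 0.0721, 0.0867 and 0 CPM in 22Rv1 and 45.1, 42.3 and 41.2 CPM in C4-2. TGFB1 was at 20.8 ± 0.995 CPM against 0.0351 ± 0.0427 CPM, and GDF15, a stress-induced ligand, at 7.58 ± 0.266 CPM against 279 ± 15.6 CPM. The inhibitory helix-loop-helix genes, direct targets of bone morphogenetic protein signals, were higher in 22Rv1, with ID3 at 299, 311 and 324 CPM against 15, 15.8 and 14.7 CPM. ID1 differed by 3.22 ± 0.05 and ID4 by 5.35 ± 0.10. BAMBI, a decoy receptor that is itself a target, was lower (-3.82 ± 0.09).

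Genes of the WNT and Notch pathways went both ways, 16 of 35 WNT genes higher and 13 lower and 10 of 22 Notch genes higher and 12 lower. The WNT receptor FZD8 was higher (3.33 ± 0.06), the secreted inhibitor DKK1 was at 6.17 ± 0.729 CPM against 0.0302 ± 0.0522 CPM (at least 79.8-fold higher without C4-2 vehicle 1, which held all C4-2 reads), and the ligand WNT7B was lower (-2.66 ± 0.07). The Notch ligand JAG1 was near off in 22Rv1, with 0.156 ± 0.0433 CPM against 13.2 ± 0.425 CPM, and HES6, a Notch-related repressor, was lower by -3.48 ± 0.05. Of 18 genes of the kappa B and cytokine list 4 were higher and 13 lower, with a median of -0.63, the lowest being ICAM1 (-3.06 ± 0.13).

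**Figure D3:**
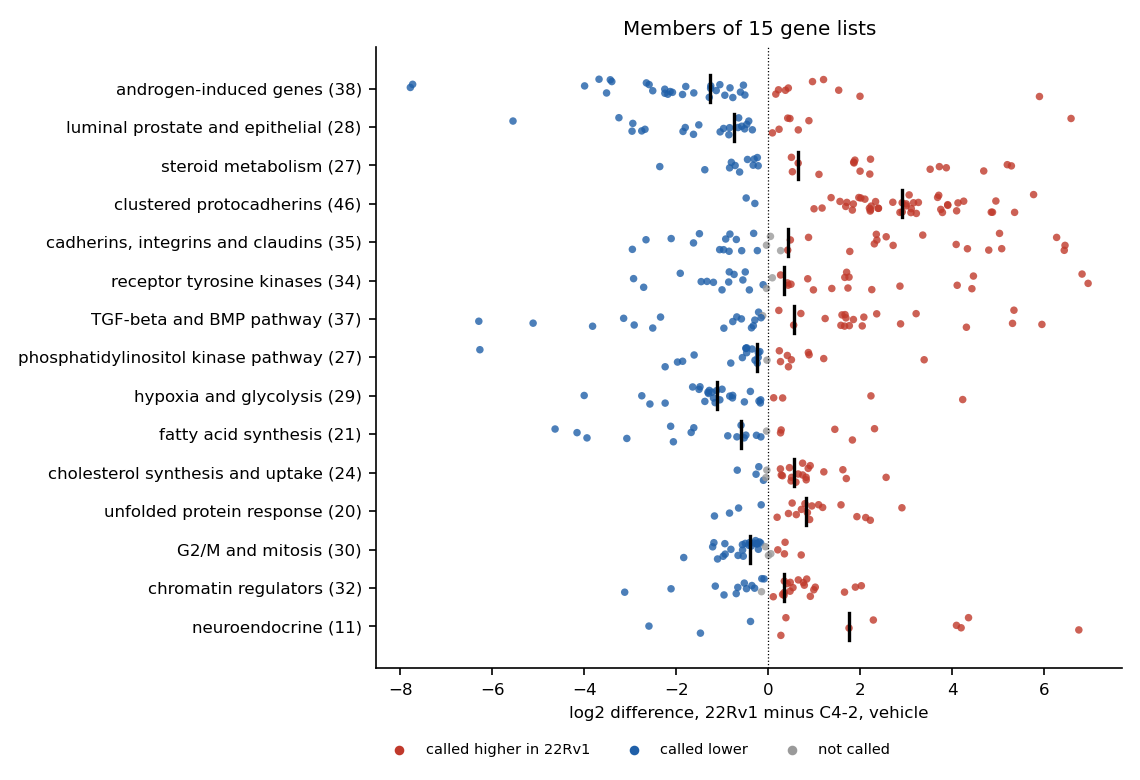
Differences of the tested members of 15 gene lists, with the number tested in brackets. Each dot is 1 gene on the log2 scale, coloured by its call, and black bars are medians. Protocadherins (median 2.92), the unfolded protein response (0.83) and cholesterol genes (0.56) lie to the right of 0, and androgen-induced genes (-1.27) and hypoxia and glycolysis genes (-1.12) to the left.

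RNA of most glycolysis genes was lower in 22Rv1, while that of the glucose transporter SLC2A1 was higher. Of 29 hypoxia and glycolysis genes, 25 were lower and 4 higher, with a median of -1.12, and 17 were at least 2-fold lower against 13.5% of all genes. LDHA, which makes lactate, had 343, 353 and 364 CPM in 22Rv1 and 1132, 1059 and 1124 CPM in C4-2 (-1.64 ± 0.04). The lactate exporter SLC16A3 was at 4.27 ± 0.0460 CPM against 76.1 ± 4.85 CPM (-4.002 ± 0.06), PDK1, which keeps pyruvate from mitochondria, was lower by -2.24 ± 0.06, and BNIP3, a hypoxia-induced mitophagy gene, by -2.57 ± 0.04. SLC2A1, which brings glucose into cells, had 1379, 1446 and 1484.5 CPM in 22Rv1 and 82.1, 72.2 and 73.8 CPM in C4-2, a difference of 4.23 ± 0.04. ALDOC, the aldolase of brain, was higher too (2.24 ± 0.06), and LDHB, the lactate dehydrogenase that favours pyruvate, hardly differed (0.12 ± 0.04).

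Lipid genes divided by branch. Of 24 genes of cholesterol synthesis and uptake, 18 were higher and 4 lower, with a median of 0.56. HMGCS1, which makes the pathway's substrate HMG-CoA, was at 269 ± 8.57 CPM against 86.7 ± 2.02 CPM, and MVD (1.70 ± 0.04) and MSMO1 (1.21 ± 0.05) were higher. Of 21 fatty acid genes, 5 were higher and 15 lower, with a median of -0.59. The desaturase FADS2 had 72.2, 68.2 and 73.8 CPM in 22Rv1 and 1122, 1079 and 1110.4 CPM in C4-2. ME1, the malic enzyme that supplies reducing power (-4.64 ± 0.09), ACSL1, which activates fatty acids (-4.16 ± 0.05), and the regulator SREBF1 (-2.12 ± 0.03) were lower. SCD, the stearoyl desaturase, was the abundant exception, with 2674, 2734 and 2832 CPM against 1012, 989 and 1012 CPM (1.45 ± 0.04), and the regulator MLXIPL was higher with it (2.31 ± 0.10).

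Chaperones of the endoplasmic reticulum were higher in 22Rv1. Of the 20 genes on the unfolded protein response list, 16 rose above C4-2 and 4 fell below it, with a median of 0.83. HSP90B1, the reticulum's HSP90, had 3375, 3482 and 3418 CPM in 22Rv1 and 907, 888 and 899 CPM in C4-2. CRELD2 (2.22 ± 0.04), DERL3 (2.91 ± 0.08) and PDIA4 (2.12 ± 0.04), which fold or remove secreted proteins, were higher as well. The sensors and switches of the response were among the exceptions, with ERN1 (-1.17 ± 0.08) and XBP1 (-0.84 ± 0.04) lower. Genes of glutathione and redox defence were mixed, 12 of 31 higher and 17 lower. NQO1, a quinone reductase, was at 15.1 ± 0.731 CPM against 169.85 ± 1.15 CPM, HMOX1, haem oxygenase, at 2.89 ± 0.139 CPM against 68.5 ± 12.1 CPM, and GSTM4 at 18.1 ± 0.631 CPM against 0.00754 ± 0.0131 CPM, the latter 1 read in all, a ratio of 2373 with a counting interval of 426 to 93744.

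DNA repair genes did not share 1 direction. Of 12 mismatch repair genes, 6 were higher in 22Rv1 and 4 lower, and of 25 genes of recombination and the damage response, 12 were higher and 10 lower. Differences of the mismatch repair genes ranged from -1.65 to 2.08, with 2 at least 2-fold higher and 1 at least 2-fold lower. MSH6, which recognises DNA mismatches, did not show a difference (-0.01 ± 0.04, 95% interval -0.08 to 0.07, adjusted p = 0.87 by limma), though it was called higher with total reads (0.24) and after cyclic loess scaling (0.18), and MSH3, of the same family, was lower (-1.65 ± 0.08). BRCA2 (-1.59 ± 0.04), BARD1 (-2.10 ± 0.03) and MRE11 (-1.48 ± 0.05), which act in recombination, were the lowest of their list. The highest were BRIP1 (0.71 ± 0.05), a helicase, and BLM (0.69 ± 0.05), which resolves recombination intermediates.

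Cell cycle genes did not share 1 direction. CCND1, cyclin D1, had 1585, 1613 and 1651 CPM in 22Rv1 and 354, 335 and 349.75 CPM in C4-2, a difference of 2.22 ± 0.04. The kinase CDK6 was higher (1.32 ± 0.05) and so was the inhibitor CDKN1B (1.08 ± 0.03), while RB1 was close in the lines (0.21 ± 0.04). Of 30 genes of G2 and mitosis, 23 were lower and 4 higher, beside 44.8% and 42.2% of all genes, with a median of -0.38. With scaling to total reads, 16 were lower and 7 higher. CDK1 was at 100.03 ± 5.59 CPM against 358 ± 0.838 CPM, CCNB1, cyclin B1, at 126 ± 6.46 CPM against 248 ± 6.36 CPM and PLK1 at 86.0 ± 1.15 CPM against 199 ± 3.25 CPM. Of 30 genes of replication 18 were lower and 8 higher, which became 13 lower and 14 higher with total reads, so no direction is given for that list. Ribosomal protein genes were lower in 63 of 76 and higher in 5 (median -0.56), and in 48 and 18 with total reads.

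Interferon and antigen presentation genes were split. Of 29 interferon-stimulated genes, 13 were higher and 9 lower, which became 17 and 8 with total reads and 10 and 13 after cyclic loess scaling. ISG15 was at 79.7 ± 4.05 CPM in 22Rv1 against 28.6 ± 1.23 CPM and RSAD2 at 4.61 ± 0.382 CPM against 0.148 ± 0.0566 CPM, whereas IFI6 was at 0.657 ± 0.173 CPM against 8.02 ± 0.411 CPM. JAK1, the kinase shared by interferon receptors, had 6.32, 5.14 and 5.78 CPM in 22Rv1 and 3.67, 3.37 and 3.89 CPM in C4-2. STAT3 was lower in 22Rv1 (-1.91 ± 0.04), together with the cytokine receptors IL6R (-2.69 ± 0.05) and LIFR (-2.36 ± 0.06), and STAT6 was higher (3.96 ± 0.11). Of 17 genes of antigen presentation by class I molecules, 7 were higher and 6 lower. HLA-B was at 2.36 ± 0.610 CPM against 4.10 ± 0.988 CPM and HLA-C at 18.2 ± 2.01 CPM against 41.6 ± 3.00 CPM, while the peptide-loading chaperones CALR (0.72 ± 0.04) and CANX (0.68 ± 0.04) were higher. Summed over the 17 and the 2 below the filter, the level was 3891 to 4058.5 CPM in 22Rv1 and 2619 to 2714 CPM in C4-2. The sum follows the most abundant members, as the median difference of the list was -0.03.

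Of 32 chromatin regulators, 19 were higher and 12 lower, beside 42.2% and 44.8% of all genes, with a median of 0.35. KDM6A, the histone H3 lysine demethylase on X, had 36.3, 37.9 and 38.1 CPM in 22Rv1 and 328, 329 and 331 CPM in C4-2, a difference of -3.12 ± 0.03. ARID1A, a remodeller subunit (1.03 ± 0.03), and DNMT3A, a DNA methyltransferase (1.66 ± 0.04), were higher. CBX2, a reader in the Polycomb complex, was lower (-2.11 ± 0.05). In the HOXB cluster, 6 of 8 genes tested were higher, with a median of 2.63 (1.61 with a pseudocount of 2, and 0.87 over the 5 with a mean of at least 5 CPM, 3 of them higher), among them HOXB6 at 23.3 ± 1.90 CPM against 3.06 ± 0.319 CPM and HOXB4 at 5.14 ± 0.162 CPM against 0.0536 ± 0.0134 CPM. HOXB13, at the far end of the cluster, and HOXB9 (-0.54 ± 0.10) were the lower ones.

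The differences were not even along the genome. Chromosome 7 had the highest median, 0.39 over 737 genes, with 61.9% of its genes higher in 22Rv1, and chromosome 12 followed with 0.34. In windows of 10 Mb with at least 20 genes, all 14 windows of chromosome 7 (0.00 to 1.48) and all 14 of chromosome 12 (0.13 to 0.61) had a median above 0. Chromosome 15 had the lowest median, -0.38, with 62.2% of genes lower and all 8 windows below 0. All windows of chromosomes 11, 17 and 21 were below 0 too. On chromosome 1 the long-arm windows from 140 Mb had medians of 0.43 to 0.72 in 10 of 10, and the 12 windows below 120 Mb had -0.54 to 0.35. The lowest of all 255 windows lay on chromosome 2 between 120 and 130 Mb, with a median of -1.09, where 95.5% of 22 genes were lower, led by BIN1 (-3.77 ± 0.08), and the exception was TFCP2L1 (2.99 ± 0.13), both named after their values were seen. The highest window, on chromosome 5 between 140 and 150 Mb (1.63), holds the protocadherins. These are medians over RNA, and copy number was not measured here. With total reads, the medians of chromosomes 7, 12 and 15 were 0.62, 0.58 and -0.13.

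**Figure D4:**
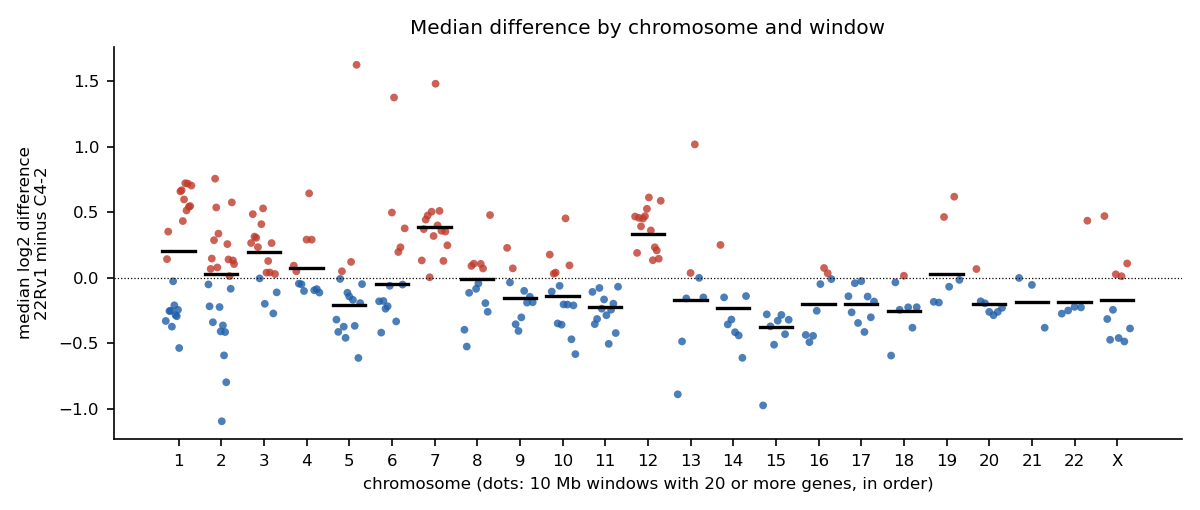
Median log2 difference of the genes tested on each chromosome (bars) and in each 10 Mb window with at least 20 genes (dots, in order along the chromosome). All windows of chromosomes 7 and 12 lie above 0 and all of chromosomes 11, 15, 17 and 21 below 0.

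The vehicle differences were present in libraries that the comparison did not use. Within estradiol (E2, 100 nM), enzalutamide (Enza, 1 µM), OSU-ERb-12 (100 nM) and the combinations of Enza with E2 or OSU-ERb-12, 3 libraries per line each, the line difference was fitted again. All libraries of both lines, vehicle included, went into a single fit, so the calls under the treatments share its spread and are not separate tests. Of the 12970 vehicle calls, 12116 (93.4%) had the same sign under all 5 treatments and 10718 (82.6%) were also called under all 5. In each treatment taken singly, the share of all genes called was 84.3% (E2), 84.5% (Enza), 85.5% (OSU-ERb-12), 84.0% (E2 with Enza) and 84.8% (OSU-ERb-12 with Enza). The shares of all genes with the same sign, or called, under all 5 at once were not computed. The 93.4% and the 82.6% therefore have no like value beside them. Of the 4690 calls of at least 2-fold, 4687 had the same sign under all 5, likewise without a like value over all genes. The exceptions, named after their values were seen, were AQP3, a water and glycerol channel, UNC5C, a netrin receptor, and PFDN6, a chaperone subunit. AQP3 was lower in 22Rv1 with vehicle (-1.14 ± 0.05), and its difference was 0.37 with E2 and -1.19 with OSU-ERb-12. UNC5C was higher with vehicle (1.27 ± 0.10) and its difference was -0.43 with E2. PFDN6 was lower with vehicle (-1.11 ± 0.22), with a wide spread in C4-2 (12.2 ± 4.47 CPM), and its difference was 0.06 with OSU-ERb-12 and Enza. Among androgen-induced genes, KLK3 ranged from -8.08 to -7.00 and TMPRSS2 from -4.16 to -2.56 over the treatments. FKBP5 ranged from -0.56 to 0.85 and SLC45A3 from -1.19 to 0.59, both being under 2-fold apart with vehicle. Whether a treatment changed the line difference was not tested.

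**Figure D5:**
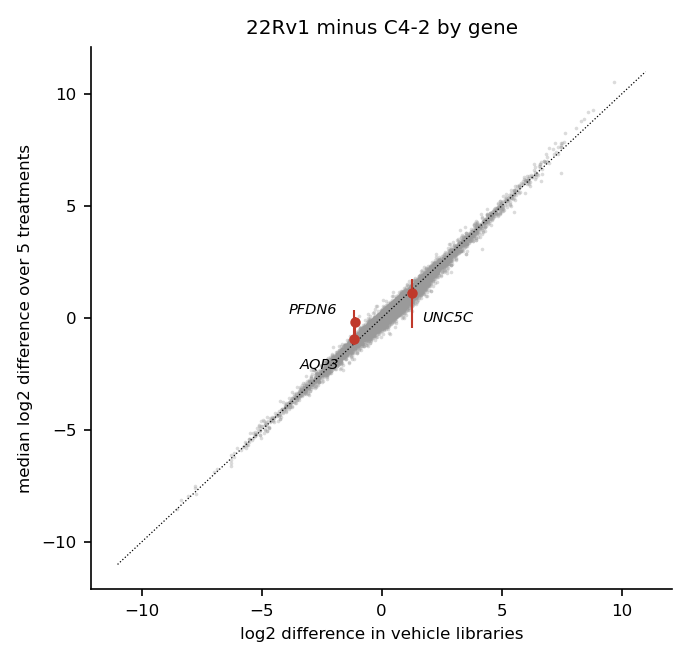
Difference of the lines with vehicle (horizontal axis) against the median of the differences under 5 treatments (vertical axis), log2, 1 dot per gene tested. Red points with bars show the median and range over treatments of AQP3, UNC5C and PFDN6. Genes lie along the dotted line of equality, and the correlation with each single treatment, a description across genes, was 0.980 to 0.996.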

How the data were processed

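Total RNA was extracted with TRIzol and made into stranded libraries, per the labels' protocols. FastQC, Trimmomatic, featureCounts, edgeR and the build hg38 are named, per the submitters' processing notes, without versions. The deposited score values are the authors' log2 CPM, with 0.5 reads added, each library multiplied by its own factor to give all columns 1 common sum. Undoing that factor gave whole reads for 100% of values (within 0.01 of a read), and CPM was computed from these reads and the authors' effective library sizes. Differences on log2(CPM + 0.5) were tested with limma 3.58.1 (R 4.3.3), its prior variance following the mean level, two-sided, with Benjamini-Hochberg adjustment over 14904 genes and 4 residual degrees of freedom. It was tested first on simulated data with 200 changed genes, far fewer than differ here, so that test does not bear on the choice of scaling. Genes were named if they were among the 15 largest differences each way (at least 10 CPM in the higher line, libraries apart), preset, or among the up to 5 largest called differences each way in a list. The members and lists were chosen with earlier results of these data known. Some genes are not reported here. Promoters were matched by gene ID for 11512 of 14904 genes. Alternatives covered pseudocount, filter, scaling, weights, samples fitted, the replicate number and left-out libraries.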

Additional observations from a re-analysis of the deposited data

How the results depend on the processing

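The total number of calls lay between 10149 and 15466 over 18 alternatives, all within 1.5 times of 12970, and between 12636 and 12777 with 1 library left out. Scaling to total reads had the largest effect on direction, with 61.2% of calls higher against 48.5%, and kept 87.6% of calls in their direction. Cyclic loess, chosen after seeing the data, kept 89.4%. With the replicate number as a block, 6229 genes were higher and 6610 lower. Same-numbered libraries of the lines did not deviate together (r = -0.135, 0.022 and -0.0916 over 10113 genes), and unlike-numbered pairs reached 0.139. With 3 libraries in each of 2 different lines, this check cannot show whether the numbers mark shared handling.

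Sizes depended more on the settings. The count at least 16-fold apart was 965 (714 higher, 251 lower) with a pseudocount of 0.1, 156 (110 and 46) with 2, and 1230 (902 and 328) with voom weights. With a mean of at least 5 CPM, which tests fewer genes, 2924 were at least 2-fold apart, 1487 of them higher. The median of replication genes turned to 0.039 and that of the phosphatidylinositol kinase pathway to 0.0089 with total reads, and that of the transforming growth factor beta list to -0.12 with a mean of at least 5 CPM. Other medians that moved by over 1.5 times with total reads were those of the mitosis list (-0.14), fatty acid genes (-0.34) and ribosomal proteins (-0.31). The same held for the kappa B and cytokine list (-0.42), chromatin regulators (0.59) and ZNF genes (0.40). Of 3454 recomputed values of the named genes, 6 changed sign, for ESR2 (-0.42, cyclic loess) and MSH6 (0.24 with total reads, 0.015 with TMM, 0.18 with cyclic loess, and from -0.021 to 0.016 with 1 library left out), neither called as reported, and both called under total reads and cyclic loess. A further 3 kept their sign and changed their call, ESR2 (0.41) and PCDHGC3 (-0.05) with total reads and FOXA1 (0.08) without C4-2 vehicle 2. Levels near 1 read per library, 0.0207 to 0.0258 CPM, limit the folds of genes that are off in one line.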

Other observations

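Among 58 clustered histone genes tested, a family chosen after values had been seen, 23 were higher in 22Rv1 and 27 lower, which became 33 and 21 with total reads. A few were near silent in C4-2. H4C4, which encodes histone H4, was at 370.15 ± 14.5 CPM (SD, n = 3) in 22Rv1 and 0.723 ± 1.08 CPM in C4-2, with a difference of 8.59 ± 0.35 (SE) and 9.27 without C4-2 vehicle 1. H3C3, a histone H3 gene, was at 154.7 ± 9.35 CPM against 0.349 ± 0.462 CPM, a difference of 7.64 ± 0.23 and 8.06 without C4-2 vehicle 1, and H4C16 was lower (-2.09 ± 0.05). The genes of this family are near-identical in their coding parts, so that reads may be placed on the wrong copy.

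Of 38 cancer-testis genes on X, 20 were higher and 16 lower. The balance turned to 14 and 18 after cyclic loess scaling (median -0.26) and to 10 and 12 over those with a mean of at least 5 CPM (-0.57), against a median of 0.45. CTAG2 was at 124.7 ± 2.91 CPM in 22Rv1 and 0.641 ± 0.407 CPM in C4-2, and GAGE1 was at 0.116 ± 0.0799 CPM against 24.5 ± 1.25 CPM, with reads possibly shared among GAGE copies. In the HOXC cluster, 4 of 9 genes were higher and 5 lower, which became 4 and 3 with total reads, from HOXC10 (3.49 ± 0.13) to HOXC6 (-1.27 ± 0.08). Of 478 zinc finger genes named ZNF, 239 were higher and 150 lower, with a median of 0.16. ZNF503, a developmental repressor, was at 292.9 ± 2.79 CPM against 9.61 ± 1.10 CPM, and ZNF703, a gene amplified in some breast cancers, at 6.85 ± 0.620 CPM against 100.4 ± 3.62 CPM. ZNF204P had no read in 22Rv1 and was at least 41.9-fold lower.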
